A study of Rattus norvegicus with 12 samples.

Results

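The 10 genes described here belong to fibroblast growth factor (FGF) signaling and to the feedback that restrains it. They were the ligands Fgf1, Fgf2 and Fgf7, the receptor Fgfr1, the Sprouty inhibitors Spry1, Spry2 and Spry4, the phosphatase Dusp6, and the transcription factors Etv4 and Etv5. Each was found by its symbol in both deposited tables, with 1 entry among the 22132 of the control and adenine table and 1 among the 32623 of the sham and UUO table. Spry1 was chosen by its FPKM, which was higher in the UUO samples only, so its values are a description and carry no test. The other 9 genes were tested in each model.

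RNA was sequenced from kidneys of 12 male wild-type SD rats, bought at 8 weeks of age and placed in 4 groups of 3. Adenine was given into the stomach at a daily dose of 220 mg/kg over 3 weeks, and control rats received saline over the same time. In the UUO group (unilateral ureteral obstruction) the left ureter was ligated and the kidneys were collected after 2 weeks, while sham rats had the same surgery without ligation. The expression level is FPKM, fragments normalised to the length of the transcript and to the fragments mapped in the sample, so that genes within a sample can be compared per length. Renal tissue was used, and the kidney markers were present, with 6 proximal tubule transcripts summing to 739 to 1665 FPKM in the control group and to 1056 to 1536 in the sham group.

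FGFs bind receptor tyrosine kinases together with heparan sulfate, and the receptors signal through adaptor proteins and the RAS-ERK kinase cascade. Active ERK raises the transcription of the PEA3 group factors Etv4 and Etv5, and also of its own brakes: the Sprouty proteins act on the steps between receptor and RAF, and Dusp6 dephosphorylates ERK in the cytoplasm. In the developing kidney the same circuit, driven mainly by GDNF and RET, controls branching of the ureteric bud, in which Spry1 restrains the outgrowth. Because Sprouty, Dusp6 and Etv genes respond to ERK, their transcripts are often read as a record of signaling, although other receptor kinases feed the same cascade.

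Promoter windows of RefSeq on the GRCr8 assembly, 250 bases before and 50 after the start site, were matched by symbol for 8 of the 10 genes. The windows of the feedback genes with the highest FPKM in the UUO group, Spry1, Spry2 and Dusp6, are printed 5′ to 3′ on the strand of the gene. Spry1 lay on the plus strand at chr2:122485097-122485396, Spry2 on the minus strand at chr15:89111877-89112176 (the first of its 2 windows), and Dusp6 on the plus strand at chr7:35979354-35979653. Capitals mark a PEA3 motif, AGGAAG read on either strand.
Spry1: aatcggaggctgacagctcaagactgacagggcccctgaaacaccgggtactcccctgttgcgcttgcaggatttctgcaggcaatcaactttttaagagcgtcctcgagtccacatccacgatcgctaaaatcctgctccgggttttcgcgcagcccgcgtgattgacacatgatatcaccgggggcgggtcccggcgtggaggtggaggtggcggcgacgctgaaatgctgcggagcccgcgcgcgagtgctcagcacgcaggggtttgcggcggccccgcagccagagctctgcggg
Spry2: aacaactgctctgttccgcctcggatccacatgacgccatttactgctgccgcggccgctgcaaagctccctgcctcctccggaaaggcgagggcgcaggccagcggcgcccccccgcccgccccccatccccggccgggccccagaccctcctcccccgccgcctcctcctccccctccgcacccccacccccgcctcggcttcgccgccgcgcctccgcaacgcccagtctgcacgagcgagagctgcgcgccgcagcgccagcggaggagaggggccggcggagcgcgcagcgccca
Dusp6: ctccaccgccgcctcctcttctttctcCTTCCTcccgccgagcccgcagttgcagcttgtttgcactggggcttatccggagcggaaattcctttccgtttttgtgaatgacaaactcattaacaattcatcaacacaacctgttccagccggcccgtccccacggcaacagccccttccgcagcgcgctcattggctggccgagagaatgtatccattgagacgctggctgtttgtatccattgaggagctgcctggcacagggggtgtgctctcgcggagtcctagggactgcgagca
GC content was 63.0% in the Spry1 window, 76.3% in the Spry2 window and 57.7% in the Dusp6 window. Of 4 motifs searched on both strands (AGGAAG, the longer ETS motif CCGGAAG, the AP-1 motif TGACTCA and the CRE motif TGACGTCA), the Dusp6 window held 1 AGGAAG, on the minus strand at -223 from the start site, and the other 2 printed windows held none. Among the remaining members with a window, the Fgf1 window held AGGAAG at +13 and at +32, and no other match was found. AGGAAG occurred in 34.5% of 33469 RefSeq windows of this length, CCGGAAG in 8.75%, TGACTCA in 4.63% and TGACGTCA in 1.83%. These matches describe letters in a window and not binding.

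Some properties of the tables touch all results. The authors made the tables separately, and changes are given only within a table. FPKM totals ranged from 564972 to 582725 for control, 468389 to 487770 for adenine, 619664 to 630244 for sham and 528811 to 539011 for UUO, and the number of reads is unknown. On the deposited scale, the median entry of all those tested had a log2 fold change of 0.30 for adenine against control and 0.62 for UUO against sham. Under median-of-ratios scaling, which centres most genes on no change, it was 0.0062 and 0.023, and the entries with an adjusted p under 0.05 changed from 5944 higher and 2990 lower to 4303 and 4281 with adenine, and from 8441 and 2165 to 4141 and 4242 with UUO.

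The sham group was not uniform for Spry1. Its FPKM was 0.0317 and 0.0459 in sham samples 1 and 2 and 5.04 in sham sample 3, whereas the 3 control samples lay between 6.84 and 8.65. Of 8963 entries that reached an FPKM of 5 in at least 1 sham sample, 61 (0.681%) were below 0.1 in another, against 61 of 10690 in the UUO group, 8 of 8778 in the control group and 13 of 9834 in the adenine group. In 11 of the 61 sham entries, Spry1 among them, samples 1 and 2 were both low. These limits were chosen after the values were seen, and the origin of the low values was not tested.

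Spry2 and Dusp6, a Sprouty inhibitor and an ERK phosphatase, were higher in every diseased kidney than in any kidney of its reference group. The FPKM of Spry2 was 8.05, 7.03 and 6.94 in control samples and 16.2, 16.4 and 17.2 in adenine samples. In the second table it was 9.08, 9.14 and 9.56 in sham samples and 26.9, 20.9 and 22.5 in UUO samples. The groups did not overlap in either model, and Spry2 rose by a log2 fold change of 1.17 ± 0.11 (SE, adjusted p = 0.000232, limma) with adenine and of 1.32 ± 0.12 (adjusted p = 0.000108, limma) with UUO. Entries with an adjusted p under 0.05 and a higher level made up 39.6% of the 15029 tested with adenine and 56.1% of the 15043 tested with UUO. How many of all entries had groups without overlap is not given, so for this and the other genes separation is a description.

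Dusp6 changed in the same direction. Its FPKM was 9.06, 7.78 and 9.83 in control samples and 19.3, 18.6 and 18.9 in adenine samples. Sham samples had 12.7, 9.71 and 10.4, and UUO samples 24.0, 18.3 and 26.7. No diseased sample fell within the range of its reference group, and the log2 fold change was 1.09 ± 0.12 (adjusted p = 0.000403, limma) with adenine and 1.05 ± 0.17 (adjusted p = 0.00154, limma) with UUO. Relative to the median of all tested entries, the log2 fold change of Dusp6 was 0.79 and 0.44 and that of Spry2 0.87 and 0.70. The difference between the models was -0.04 for Dusp6 (95% interval -0.49 to 0.42, adjusted p = 0.915, limma estimates) and 0.15 for Spry2 (-0.20 to 0.50, adjusted p = 0.514), so a difference of up to about 0.5 in either gene is within these intervals.

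**Figure D1:**
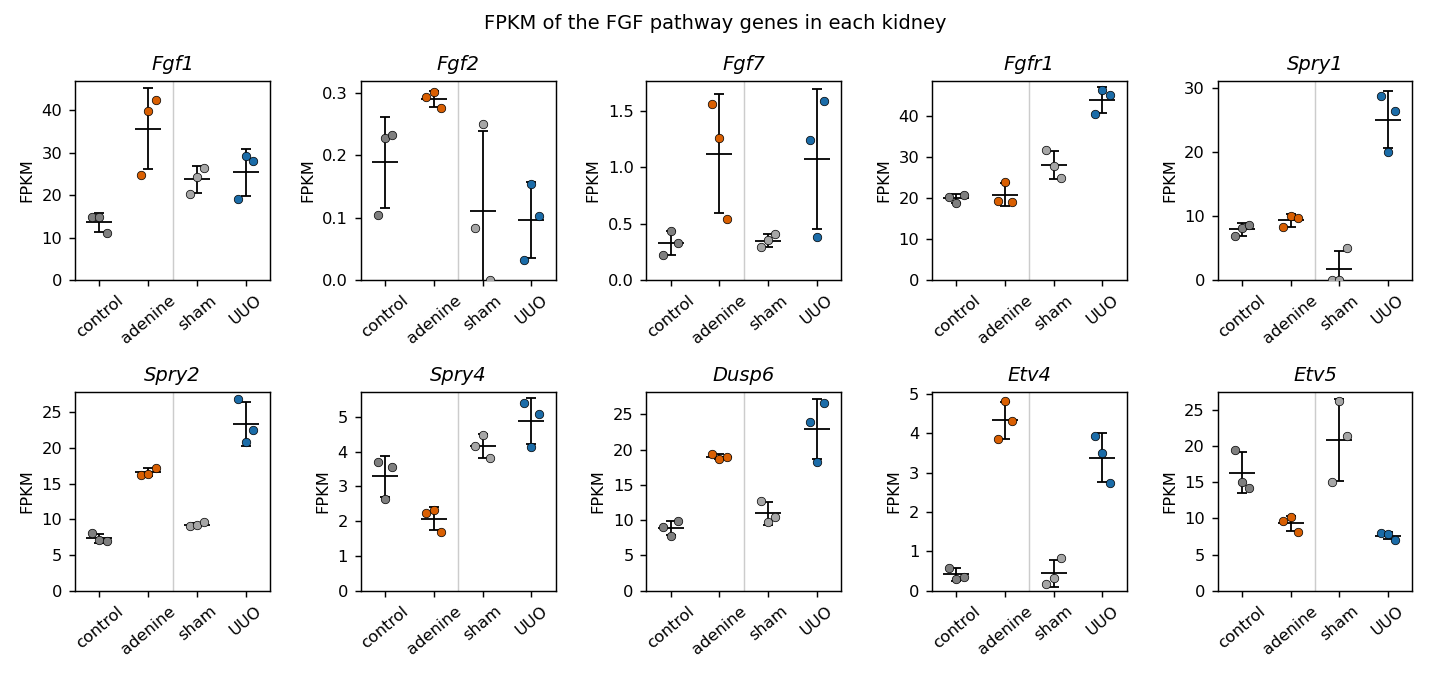
FPKM of each of the 10 genes in every kidney, 1 panel per gene with its own linear axis from 0. Points are samples (3 per group), the horizontal line is the mean and the bar is 1 SD; the vertical grey line parts the separately made tables. Spry2, Dusp6 and Etv4 lie above their reference samples in both models and Etv5 below them, while 2 of 3 sham samples of Spry1 lie near 0.

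The PEA3 group factors Etv4 and Etv5 moved in opposite directions in both models. Etv4 was low in reference kidneys, at 0.589, 0.290 and 0.355 FPKM in control samples and 0.167, 0.317 and 0.833 in sham samples. It reached 3.86, 4.82 and 4.30 in adenine samples and 3.93, 3.497 and 2.73 in UUO samples, with no overlap in either model. The log2 fold change was 3.15 ± 0.27 (adjusted p = 0.000156, limma) with adenine and 2.88 ± 0.47 (adjusted p = 0.00145, limma) with UUO, which made Etv4 the only tested gene of the set past the threshold of 2 for a differentially expressed gene (DEG). DEGs were 15.7% of tested entries with adenine and 17.4% with UUO. Only 1 control and 1 sham sample reached the minimum of 0.5 FPKM for Etv4, so its fold depends on low reference values. It could enter each fit only because the diseased samples were above that minimum.

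Etv5 was among the most abundant of the 10 genes in reference kidneys and fell in both models. Control samples had 19.5, 15.1 and 14.3 FPKM and adenine samples 9.64, 10.1 and 8.17. Sham samples had 15.0, 26.3 and 21.3, a wide spread, and UUO samples 7.95, 7.84 and 7.07. The groups did not overlap, and Etv5 fell by 0.79 ± 0.16 on the log2 scale with adenine (adjusted p = 0.00517, limma) and fell by 1.41 ± 0.20 with UUO (adjusted p = 0.000872, limma). Entries called lower made up 19.9% of those tested with adenine and 14.4% with UUO.

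The ratio of Etv5 to Etv4 was therefore 33.2 to 52.0 for control and 25.6 to 89.9 for sham, but between 1.899 and 2.49 in adenine samples and between 2.02 and 2.59 in UUO samples. The diseased kidneys of both models lay in nearly the same range. Summed FPKM of both factors was 14.6 to 20.1 in control, 12.5 to 15.0 in adenine, 15.2 to 26.6 in sham and 9.79 to 11.9 in UUO samples, so the rise of Etv4 was smaller in mean FPKM than the fall of Etv5. Between the models, the log2 fold change of Etv4 differed by -0.28 (95% interval -1.43 to 0.88, adjusted p = 0.733) and that of Etv5 by -0.62 (adjusted p = 0.0913), neither past the threshold. The Etv5 difference did pass without control sample 1 (adjusted p = 0.0411) or sham sample 1 (0.0137) and under median-of-ratios (0.03) or quantile scaling (0.0254), and the Etv4 difference was -1.27 (adjusted p = 0.048) with sham samples 1 and 2 left out. In whole kidney RNA, fewer cells that make Etv5 and less Etv5 RNA per cell cannot be told apart.

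Spry1 was chosen by its level in these groups, and it is given without a test. It was 6.84, 8.19 and 8.65 FPKM in control samples and 8.21, 10.1 and 9.71 in adenine samples, and these ranges overlap. UUO samples had 28.7, 20.1 and 26.5 FPKM, the highest values of the gene in any group and above the 5.04 of sham sample 3. The fitted log2 fold change was 0.24 with adenine and 5.75 with UUO. With sham samples 1 and 2 left out, an alternative chosen after the values were seen, the UUO value was 2.28, and leaving out single samples gave values from 4.85 to 7.49.

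Sprouty transcripts as a sum were higher in both models than in their reference samples, and Spry1 took a larger part of them in UUO than in sham kidneys. The summed FPKM of Spry1, Spry2 and Spry4 was 17.8 to 19.1 in control samples, 26.6 to 28.7 with adenine, 13.3 to 18.4 after sham surgery and 45.1 to 60.97 with UUO. Spry1 made up 36.8% to 45.9% of the sum in control samples and 30.8% to 35.0% in adenine samples. In sham samples 1, 2 and 3 its share was 0.239%, 0.336% and 27.4%, and in UUO samples it was 44.5% to 49.0%. Spry2 held 56.9% to 60.8% in adenine samples and 41.6% to 46.3% in UUO samples, and thus about as much as Spry1 in the latter. Both the sums and the shares are a description, since they contain Spry1, which was chosen for its higher level in the UUO samples.

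**Figure D2:**
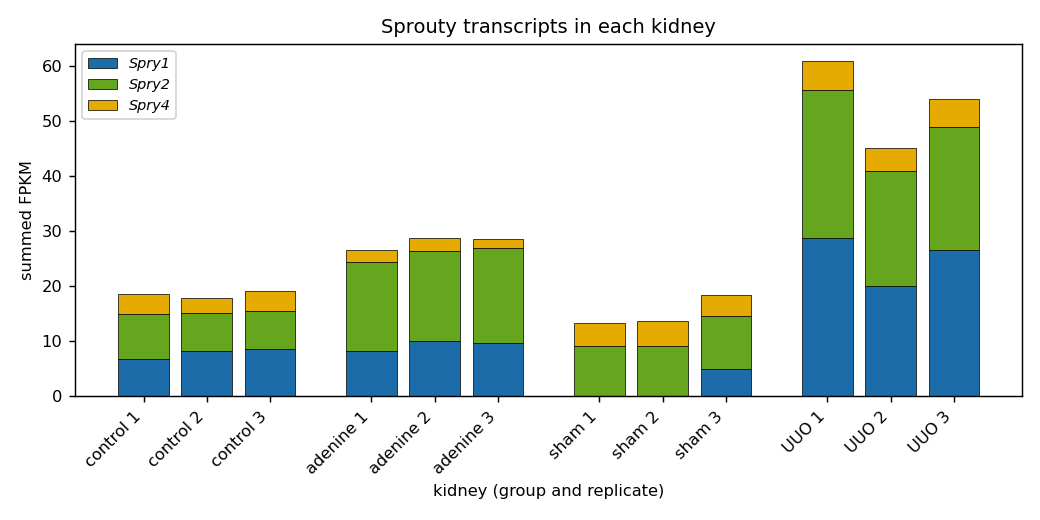
FPKM of Spry1, Spry2 and Spry4 stacked for each of the 12 kidneys (linear axis from 0, group and replicate on the x axis). The UUO samples reach 45.1 to 60.97, the adenine samples 26.6 to 28.7, and the Spry1 segment is nearly absent in sham samples 1 and 2.

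Spry4, a further Sprouty inhibitor, did not follow Spry2. Its FPKM was 3.71, 2.62 and 3.56 in control samples and 2.22, 2.31 and 1.69 in adenine samples, without overlap, and it fell by 0.64 ± 0.22 on the log2 scale (adjusted p = 0.0382, limma). This call was lost in 8 of 15 tested alternatives, among them the fit with all entries kept (adjusted p = 0.0591, limma), and without each of control samples 1 and 3 and adenine samples 1, 2 and 3 in turn the adjusted p was between 0.0557 and 0.114. In sham samples it was 4.16, 4.49 and 3.80 and in UUO samples 5.40, 4.14 and 5.07, which overlap, with a log2 fold change of 0.22 ± 0.16 (95% interval -0.15 to 0.59, adjusted p = 0.244, limma). On this scale Spry4 lay 0.40 below the median change of all entries in the UUO model, and its direction turned to -0.37 with median-of-ratios scaling and to -0.53 (adjusted p = 0.0223, limma) with quantile normalization.

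The ligands did not move together. Fgf1, a broadly acting FGF that binds all FGF receptors, was 14.9, 14.7 and 11.1 FPKM in control samples and 24.6, 39.9 and 42.3 in adenine samples. It rose by a log2 fold change of 1.36 ± 0.23 (adjusted p = 0.00268, limma), and every adenine sample was above every control sample. In sham samples it was 20.3, 24.2 and 26.5 and in UUO samples 19.0, 29.1 and 28.1, groups that overlap, with a log2 fold change of 0.08 ± 0.19 (95% interval -0.37 to 0.53, adjusted p = 0.705, limma). That value turned to -0.51 (adjusted p = 0.0482, limma) with median-of-ratios scaling and to -0.33 with quantile normalization.

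Fgf7 (keratinocyte growth factor), a ligand that stromal cells make for epithelium, was below 0.5 FPKM in every reference sample. It was 0.224, 0.435 and 0.331 in control samples and 1.56, 1.26 and 0.536 in adenine samples, and rose by a log2 fold change of 1.42 ± 0.43 (adjusted p = 0.0262, limma). The gene entered this test only through the adenine samples, and the call was lost with quantile normalization (adjusted p = 0.156) and without control sample 1 (0.0767) or 3 (0.0615). Sham samples had 0.290, 0.354 and 0.405 and UUO samples 1.24, 0.383 and 1.59, of which sample 2 lay within the sham range. Too few UUO samples reached the minimum for the fit, and the two-sided exact permutation test gave p = 0.2.

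Fgf2, basic FGF, was the least abundant of the 10 genes in every group and reached 0.5 FPKM in no sample. Control samples had 0.105, 0.228 and 0.233 and adenine samples 0.294, 0.301 and 0.277, which do not overlap. The two-sided exact permutation test gave p = 0.1, the smallest that 3 against 3 allows. In sham samples it was 0.0834, 0.250 and 0.0001, the last being the lowest value listed in that table, and in UUO samples 0.0313, 0.153 and 0.103 (exact p = 1). Fgf2 overlaps Nudt6 on the other strand in RefSeq, and whether the counting used strand is not given in the sources used here.

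Fgfr1, the receptor found on mesenchymal cells and many others, was the most abundant of the 10 genes in the control, sham and UUO groups. Its FPKM was 20.3, 18.7 and 20.9 in control samples and 19.4, 24.0 and 19.0 in adenine samples, which overlap, and the log2 fold change of 0.05 ± 0.13 did not pass (95% interval -0.25 to 0.35, adjusted p = 0.739, limma). Its sign turned to -0.24 with median-of-ratios scaling and -0.08 with quantile normalization. Sham samples had 31.8, 27.8 and 25.0 and UUO samples 40.5, 46.5 and 45.1 without overlap, and Fgfr1 rose by a log2 fold change of 0.65 ± 0.11 (adjusted p = 0.00211, limma). That rise was close to the median change of all entries in the UUO model, 0.03 above it, and with median-of-ratios scaling it was 0.05 (adjusted p = 0.771, limma).

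In all, 7 of the 8 tested genes passed in the adenine model, 5 higher (Fgf1, Fgf7, Spry2, Dusp6 and Etv4) and 2 lower (Spry4 and Etv5). Fgf7 entered this fit, and Etv4 the fits of both models, only because the diseased samples were above the minimum. Their calls are therefore no separate support for a rise. In the UUO model 5 of 7 passed, 4 higher (Fgfr1, Spry2, Dusp6 and Etv4) and Etv5 lower. Of all entries, 8934 of 15029 passed in either direction with adenine and 10606 of 15043 with UUO. The shares called higher, 39.6% and 56.1%, show how common a rise was in these kidneys, and 19.9% and 14.4% were called lower. The counts of the UUO model lie near the shares over all entries.

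**Figure D3:**
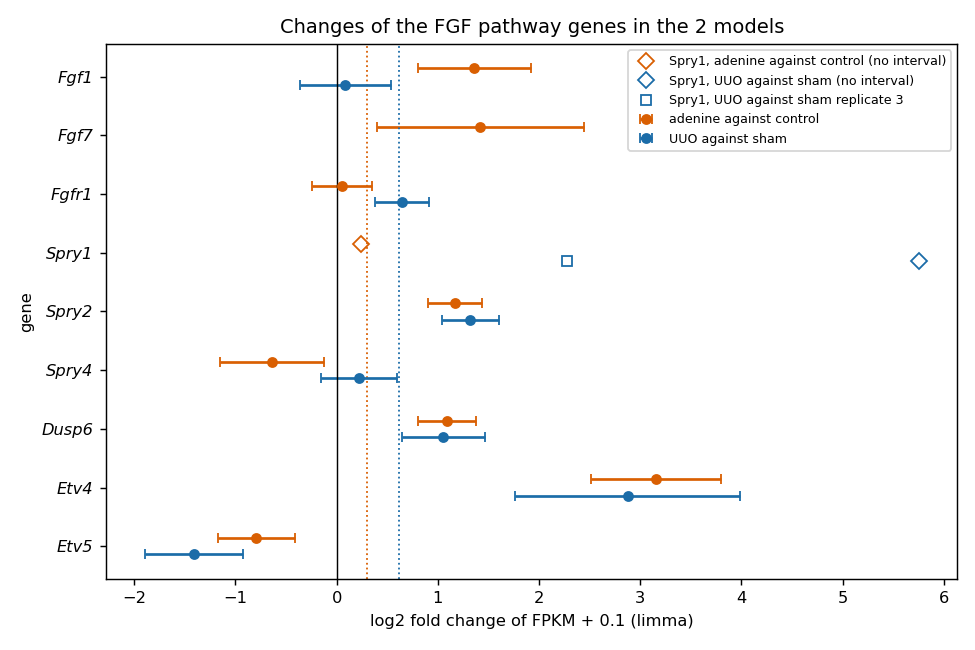
Log2 fold change of FPKM + 0.1 in the adenine model (orange) and the UUO model (blue), with 95% intervals from limma. The dotted lines are the medians of all tested entries, 0.30 and 0.62. Open diamonds give Spry1 with no interval, and the open square is its UUO value of 2.28 against sham sample 3 alone. Fgf1 lies to the right in the adenine model only, and Etv5 lies left of 0 in both.

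The difference between the models was tested for 7 genes, and 3 of them passed. Such a difference was called for 27.0% of the 13486 symbols tested in both tables. The log2 fold change of Fgf1 was lower in the UUO model by -1.28 ± 0.30 (95% interval -1.92 to -0.63, adjusted p = 0.00818), and this call was kept in all 22 alternatives. Spry4 differed by 0.86 ± 0.27 (adjusted p = 0.0298), a call lost in 10 of 22, among them without control sample 1 or 3, adenine sample 3, sham sample 3 or UUO sample 1 or 3 (0.0501 to 0.0738), and Fgfr1 by 0.59 ± 0.17 (adjusted p = 0.0207), a call lost in 5 of 22, among them without adenine sample 1 (0.055) or 3 (0.0555). With median-of-ratios scaling the Spry4 difference was 0.55 (adjusted p = 0.163) and the Fgfr1 difference 0.29 (adjusted p = 0.283).

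The order of the mean levels is given for each group, with no test. In control samples the highest means were those of Fgfr1 (20.0 ± 1.14 FPKM, SD, n = 3), Etv5 (16.3 ± 2.84) and Fgf1 (13.6 ± 2.15). The range of Etv5 overlapped that of Fgfr1 and that of Fgf1, so its place in this order is not separated beyond the spread. In adenine samples Fgf1 came first (35.6 ± 9.57), above Fgfr1 (20.8 ± 2.81), and Dusp6 (19.0 ± 0.35) and Spry2 (16.6 ± 0.55) followed, ahead of Etv5 (9.32 ± 1.02). The ranges of Fgfr1 and Dusp6 overlapped there. In sham samples Fgfr1 (28.2 ± 3.41), Fgf1 (23.7 ± 3.11) and Etv5 (20.9 ± 5.66) overlapped one another, ahead of Dusp6 (10.9 ± 1.597) and Spry2 (9.26 ± 0.26). In UUO samples Fgfr1 led (44.0 ± 3.13), and Fgf1 (25.4 ± 5.55), Spry1 (25.1 ± 4.49), Spry2 (23.4 ± 3.10) and Dusp6 (23.0 ± 4.27) overlapped one another, with Etv5 below them at 7.62 ± 0.48.

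Outside the 10 genes, 8 lists with 104 genes of the pathway were counted. Among ERK-responsive transcription factors and targets, 16 of 18 tested rose and 1 (Ccnd1) fell in the adenine model, with a median log2 fold change of 1.86 beside 0.30 for all entries. In the UUO model 11 of 17 rose and 1, again Ccnd1, fell, with a median of 1.53 beside 0.62. Among all tested entries 39.6% were called higher with adenine and 56.1% with UUO, the latter not far from the share of this list. With median-of-ratios scaling 12 of 18 and 10 of 16 genes of the list rose, with medians of 1.58 and 0.99. Of all entries, 4303 of 14982 with adenine and 4141 of 14973 with UUO were then called higher, with medians of 0.0062 and 0.023. Of those tested, 3 with adenine and 2 with UUO reached the minimum FPKM in no reference sample. The UUO call of Ccnd1 was lost in 4 of 16 alternatives, among them without sham sample 2 (adjusted p = 0.0547) or UUO sample 3 (0.052).

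Myc, a growth regulator, went from 3.24 ± 1.25 FPKM (SD, n = 3) in control to 23.0 ± 0.30 in adenine samples (log2 fold change 2.86, adjusted p = 0.000223, limma) and from 4.08 ± 1.26 in sham to 32.5 ± 2.64 in UUO samples (3.01, adjusted p = 7.18e-05). The AP-1 subunits Fosl1, Fosl2 and Junb rose in both models. Fosl2 reached 9.99 ± 0.93 FPKM with adenine and 11.1 ± 0.77 with UUO, from 2.28 ± 0.38 and 3.17 ± 0.93. Junb changed by log2 fold changes of 1.82 and 2.04, and Fosl1, below 0.5 FPKM in every reference sample, by 3.00 and 2.36. Elk3, an ETS factor that ERK phosphorylates, rose by 1.93 (adjusted p = 5.89e-05, limma) with adenine and by 2.39 (adjusted p = 9.83e-06) with UUO.

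Of the immediate early Egr genes, Egr2 rose more with adenine than with UUO. It was 0.160 to 0.255 FPKM in control and 16.0 to 32.7 in adenine samples, and 0.106 to 0.360 in sham and 3.97 to 5.54 in UUO samples. No control or sham sample reached 0.5 FPKM for Egr2, so it entered both fits only through the diseased samples. With that limit, both rises passed, and the log2 fold change of Egr2 was lower by -2.29 in the UUO model (adjusted p = 0.00368). Egr3 was listed at 0 in every control kidney and at 3.25 to 6.001 FPKM in adenine kidneys, and reached at most 0.423 in UUO samples, too low for the fit. Egr1 rose with adenine, by a log2 fold change of 2.26 ± 0.55 (adjusted p = 0.0111, limma), but sham samples alone spanned 4.07 to 45.2 FPKM and the UUO value of 1.21 ± 0.90 did not pass (adjusted p = 0.261) unless sham sample 1 was left out (2.34, adjusted p = 0.000451). Fos spanned 0.569 to 6.83 FPKM in control samples, and its value of 2.49 ± 0.86 with adenine (adjusted p = 0.0417, limma) was lost in 9 of 15 alternatives, among them without any of control samples 1 and 2 and adenine samples 1, 2 and 3 (up to 0.134). With UUO the Fos value of 1.64 ± 0.79 did not pass (adjusted p = 0.102), but did without sham sample 1 (0.0113), with sham samples 1 and 2 left out (0.0342) and with the replicate block (0.0053).

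Of the other feedback inhibitors, 10 of 13 tested rose and 1 fell with adenine (median log2 fold change 1.19), and 9 of 14 rose and 2 fell with UUO (0.97), beside 39.6% and 56.1% of all tested entries called higher and overall medians of 0.30 and 0.62. In each model 1 of those tested reached the minimum FPKM in no reference sample. With median-of-ratios scaling the counts were 8 and 1 of 14, and 5 and 3 of 14. Of all entries, 4303 of 14982 and 4141 of 14973 were then called higher, and 4281 and 4242 lower. Dusp4, a nuclear ERK phosphatase, was 0.648 ± 0.36 FPKM in control and 4.40 ± 0.84 in adenine samples (log2 fold change 2.73, adjusted p = 0.00217, limma), and 0.923 ± 0.26 in sham and 6.69 ± 0.88 in UUO samples (2.75, adjusted p = 8.99e-05). Dusp10, which acts on JNK and p38, rose by 2.07 and 2.41, from below 0.5 FPKM in all reference samples. Errfi1, an inhibitor of the EGF receptor, fell in both models, from 102 to 50.3 FPKM in the means with adenine and from 144 to 92.6 with UUO. The calls of Errfi1 were lost in 6 of 15 alternatives with adenine (without control sample 1 or 3 or adenine sample 1 or 3 among them, adjusted p = 0.0537 to 0.0699) and in 5 of 16 with UUO (without sham sample 2 or 3 or UUO sample 1 or 2 among them, 0.0721 to 0.079).

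Adaptors and members of the RAS-ERK cascade rose in 14 and fell in 4 of 21 with adenine (median log2 fold change 0.68), and rose in 15 and fell in 1 of 21 with UUO (0.74). The shares of all entries called higher were again 39.6% and 56.1%, with medians of 0.30 and 0.62. With median-of-ratios scaling 9 and 8 rose and 4 fell in each model, where 4303 of 14982 and 4141 of 14973 entries were called higher. Gab2, a docking protein, went from 0.961 ± 0.60 to 8.70 ± 0.83 FPKM with adenine (log2 fold change 3.20, adjusted p = 0.00059, limma) and from 2.77 ± 0.24 to 9.32 ± 0.87 with UUO (1.71, adjusted p = 7.84e-05). Cbl, a ubiquitin ligase for receptor kinases, rose by 2.94 with adenine and 1.24 with UUO. Cbl was 0.145 to 0.399 FPKM in control samples, so it entered the adenine fit only through the adenine samples, and its UUO call was lost with quantile normalization (0.39, adjusted p = 0.176) and with sham samples 1 and 2 left out (0.98, adjusted p = 0.063). Listed reference levels of both genes were lower in the control than in the sham group, but these stand in separately made tables and were not tested against each other.

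The remaining receptors had mixed directions. Fgfr2, an epithelial receptor, was 4.38 ± 1.06 FPKM in control and 7.89 ± 1.3 in adenine samples (log2 fold change 0.85, adjusted p = 0.0137, limma), and 6.35 ± 0.41 in sham and 9.19 ± 0.49 in UUO samples (0.53, adjusted p = 0.00484). The adenine call of Fgfr2 was lost without adenine sample 3 (adjusted p = 0.0531) and in 3 of 15 alternatives in all, and its UUO value turned to -0.07 with median-of-ratios scaling and to -0.14 with quantile normalization. Fgfr3 rose by 1.27 and by 1.41, to 16.6 ± 3.22 and 18.5 ± 4.90 FPKM. Fgfr4 fell by 1.42 with adenine, from 28.0 ± 5.49 to 10.4 ± 1.85 FPKM, and fell by 0.63 with UUO, from 22.8 ± 4.19 to 14.7 ± 2.91, the latter lost in 5 of 16 alternatives, which were leaving out sham sample 1 (adjusted p = 0.0609), UUO sample 1 (0.055) or sham samples 1 and 2 (0.131), the replicate block (0.0596) and FPKM rescaled to the same sum (fell by 0.41, 0.0952). Kl (Klotho), the renal coreceptor for FGF23, spanned 4.52 to 26.7 FPKM in control samples and 0.982 to 6.15 in adenine samples, and its fall by 2.24 (adjusted p = 0.0498, limma) was lost in 9 of 15 alternatives, among them without control sample 1 or 3 or adenine sample 1 or 3 (0.115 to 0.139). In the UUO model Kl fell by 2.92, from 38.8 ± 14.03 to 4.90 ± 1.33 FPKM (adjusted p = 0.000306, limma).

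Of 14 other ligands, 8 were listed in the control and adenine table and 14 in the sham and UUO table, and 3 could be tested in each. Fgf9 fell in both models, from 8.74 ± 1.11 to 2.45 ± 0.41 FPKM with adenine (adjusted p = 0.000284, limma) and from 8.22 ± 0.36 to 4.48 ± 0.30 with UUO (adjusted p = 0.000681). Fgf22 fell with adenine (log2 fold change -0.79) and rose with UUO (0.77), and Fgf18, tested only in the UUO model, rose there (1.88). The UUO calls of Fgf18 and Fgf22 were lost with median-of-ratios scaling (1.33, adjusted p = 0.0509, and 0.20, adjusted p = 0.524). That of Fgf22 was kept in 7 of 16 alternatives and was lost without sham sample 1 or 2 or UUO sample 1 or 3 (0.0584 to 0.113), and its adenine call was lost without control sample 1 or adenine sample 1 or 2 (0.0523 to 0.0668). Of the intracellular FGF homologous factors, which do not act through the receptors, 1 of 3 rose in each model. It was Fgf12, at 1.18 ± 0.16 FPKM in adenine samples from 0.499 ± 0.27, and at 4.10 ± 0.60 in UUO samples from 0.451 ± 0.04. No sham sample reached 0.5 FPKM for Fgf12, so it entered the UUO fit only through the UUO samples. The adenine call of Fgf12 was lost in 8 of 15 alternatives, among them without control sample 2 or 3 or any adenine sample (adjusted p = 0.0561 to 0.122). None of the GDNF-RET genes listed in these tables reached the minimum FPKM in enough samples to be tested.

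Genes of heparan sulfate, the cofactor of FGF binding, rose in 11 and fell in 2 of 18 with adenine (median log2 fold change 0.79), and rose in 11 and fell in 1 of 18 with UUO (1.08), where 39.6% and 56.1% of all tested entries were called higher and the overall medians were 0.30 and 0.62. With median-of-ratios scaling 9 and 8 rose, and 4 and 5 fell, where 4303 of 14982 and 4141 of 14973 entries were called higher. Sdc1, the core protein of the proteoglycan syndecan-1, went from 3.45 ± 0.73 to 71.9 ± 20.8 FPKM with adenine (log2 fold change 4.33, adjusted p = 4.77e-05, limma) and from 4.51 ± 0.66 to 59.3 ± 8.09 with UUO (3.69, adjusted p = 1.16e-05). Sulf2, an endosulfatase that trims 6-O-sulfates, went from 8.75 ± 2.59 to 47.3 ± 2.23 FPKM with adenine and from 16.3 ± 3.38 to 49.5 ± 5.17 with UUO. Sulf1, the other endosulfatase, rose by 2.86 and 1.61, and its UUO call was lost with median-of-ratios scaling (1.03, adjusted p = 0.0691), with quantile normalization (0.80, 0.141) and with sham samples 1 and 2 left out (0.91, 0.174). Gpc6, a glypican, rose by 2.63 and 2.23, and as it was 0.214 to 0.460 FPKM in control samples it entered the adenine fit only through the adenine samples.

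**Figure D4:**
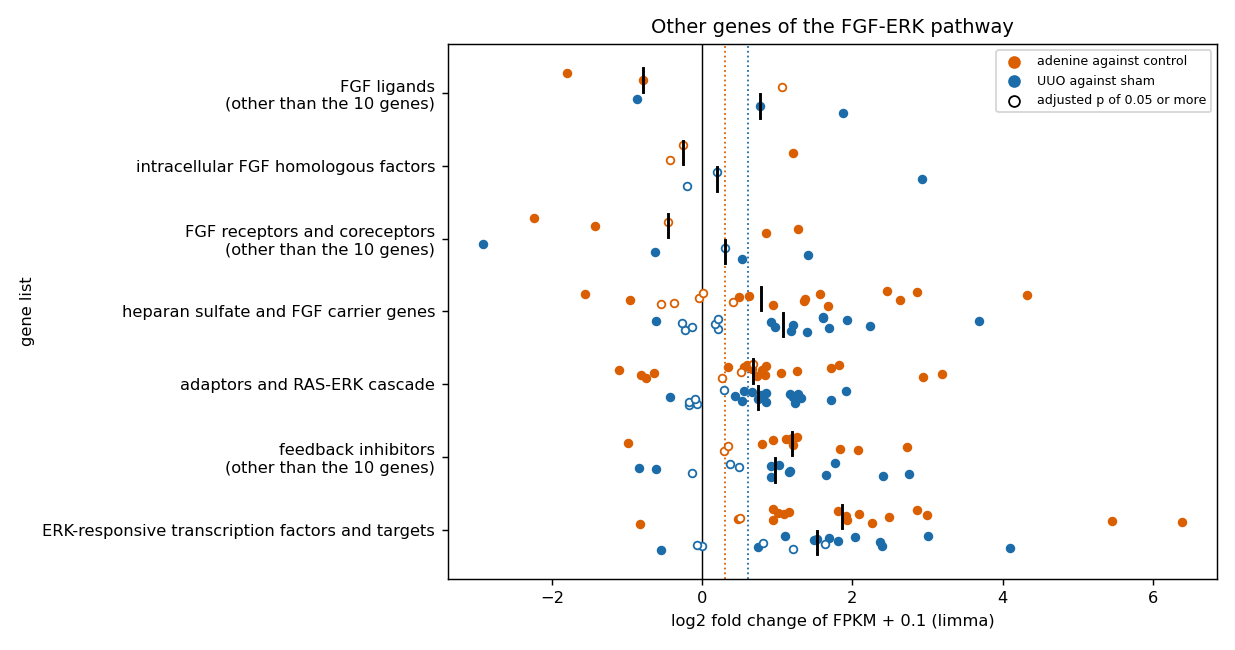
Log2 fold changes of FPKM + 0.1 for the tested genes of 7 pathway lists, adenine in orange and UUO in blue. Filled points had an adjusted p under 0.05, black ticks are list medians, and dotted lines are the medians of all tested entries (0.30 and 0.62). The ERK-responsive list has medians of 1.86 and 1.53, while receptors lie on both sides of 0.

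Markers of kidney cell types also changed in these samples. Among all tested entries, 39.6% were called higher and 19.9% lower with adenine, and 56.1% higher and 14.4% lower with UUO. Small counts below, such as 2 of 4 endothelial markers higher with UUO or 1 of 4 podocyte markers lower, lie near these shares. All 8 fibroblast and myofibroblast markers rose in both models, with summed FPKM from 82.2 to 119 in control to 587 to 784 in adenine samples, and from 77.0 to 105 in sham to 1075 to 2397 in UUO samples. All 6 macrophage markers rose, to 474 to 781 from 15.3 to 18.6 with adenine and to 195 to 237 from 16.7 to 24.8 with UUO, and so did all 6 T cell markers, to 115 to 123 and 121 to 263. Urothelium markers rose 6 of 6 in the UUO model, from 0.646 to 2.78 to between 103 and 167, while only 2 could be tested with adenine and neither passed. In sham sample 2 all 6 summed to 0.646 FPKM, so most of them entered the UUO fit only through the UUO samples. Proximal tubule markers fell in 3 of 6 with adenine (48.0 to 283 in adenine samples) and in 4 of 6 with UUO (93.3 to 258), thick limb and distal tubule markers in 2 of 4 and 4 of 4, and collecting duct markers in 3 of 5 and 5 of 5. Endothelial markers moved differently, with 2 of 4 lower and 1 higher with adenine and 2 of 4 higher with UUO. Smooth muscle markers rose in 1 and fell in 1 of 4 with adenine and rose in 3 of 4 with UUO, podocyte markers fell in 1 of 4 in each model with 1 higher with UUO, and B cell markers rose in 2 of 2 tested with UUO, while the 1 tested with adenine did not pass. B cell markers summed to 0.334 and 0.375 FPKM in sham samples 1 and 2. Those tested with UUO therefore entered the fit only through the UUO samples. The part of these shifts in the levels of the FGF genes was not tested.

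The pattern of Spry1 over the 12 samples was set beside that of 13485 other symbols, after the mean of the reference samples was taken off in each table. The 5 most alike by Pearson's r were Chtop (0.975), Cd200 (0.966), LOC103689920 (0.961), AC120692 (0.953) and Inpp5e (0.951). Like Spry1, all 5 had higher FPKM in sham sample 3 than in samples 1 and 2, with 19.1, 17.4 and 28.5 for Chtop and 12.4, 12.1 and 20.7 for Cd200. LOC103689920 was at the lowest listed value of 0.0001 in sham samples 1 and 2 and at 3.95 in sample 3. The other members were less alike, from 0.73 for Fgfr1 and 0.61 for Spry2 to -0.71 for Etv5. The likeness thus includes the spread within the sham group, and it is given with no test.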

How the data were processed

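Polyadenylated RNA of 12 kidneys was sequenced by the authors with a dUTP library protocol. The authors deposited FPKM values per gene in 2 tables, after bases of low quality had been removed, reads mapped and transcripts merged. The submitters' processing notes name cutadapt 1.9, HISAT2 2.0.4, StringTie 1.3.4d, edgeR and DESeq2 without their roles, and the genome build is not given in the sources used here. FPKM holds no read counts, so depth and counting error are unknown, and precision rests on the spread between 3 rats.

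Samples were grouped by their labels. Values were analysed as log2(FPKM + 0.1) for entries that reached FPKM 0.5 in 3 or more of the 6 samples of a table, with limma 3.58.1 (lmFit, eBayes with trend) in R 4.3.3, separately for each table, which understates the fold changes of low genes. A gene passed with a Benjamini-Hochberg adjusted p under 0.05 over all tested entries, and a DEG also changed by 2 or more on the log2 scale. The difference between models was that of the log2 fold changes over its standard error (both errors combined as independent), referred to a t distribution whose degrees of freedom were added over the fits and adjusted over 13486 symbols. Exact permutation tests were two-sided. The fits were tested on simulated data. Tables and figures were made with matplotlib 3.10.9, scipy 1.17.1, pandas 2.3.3 and numpy 2.4.6 in Python 3.11.15.

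The members and gene lists were chosen with earlier results of these data known. Genes of the lists are named if they were a DEG in at least 1 model, with all FGF receptors, and for Spry1 the 5 most correlated symbols; Ccnd1, Errfi1, Fgf9, Fgf18 and Fgf22 were named after their values were seen, and Sdc2, Gpc4, Plcg1, Hras, Araf and Map2k2 because the test of the difference passed. Alternatives were median-of-ratios, quantile and equal-sum scaling, a pseudocount of 1 or 0.01, every entry kept or a minimum FPKM of 1, eBayes without trend, a replicate block, log2 ratios of mean FPKM, and leaving out each sample.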

Additional observations from a re-analysis of the deposited data

Results flagged for a closer look

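The test of the difference between the models picked out 18 genes, 3 of the 7 members tested and 15 of 79 tested genes of the pathway lists (19.0%, beside 27.0% of all symbols tested), each given as the log2 fold change in the UUO model minus that in the adenine model. Among the members these were Fgf1 (-1.28), Fgfr1 (0.59) and Spry4 (0.86). For Fgf1, the 3 adenine samples lay above all control samples while UUO and sham samples overlapped. Sham samples (20.3 to 26.5 FPKM) and control samples (11.1 to 14.9 FPKM) stand in separately made tables and were not tested against each other.

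Among the listed genes the difference was 0.94 for Fgf9, 1.56 for Fgf22, 1.71 for Fgf12, 0.79 for Fgfr4, 0.96 for Sdc2, 0.82 for Gpc4, 0.82 for Plcg1, 0.55 for Hras, 0.57 for Araf, 0.68 for Map2k2 and 0.47 for Elk3. A positive difference was not always a rise with UUO. The UUO log2 fold change was -0.61 for Sdc2, -0.43 for Map2k2, -0.17 for Araf, -0.13 for Gpc4 and -0.09 for Hras. Fgf9 and Fgfr4 fell in both models, while Fgf22, Fgf12, Plcg1 and Elk3 rose with UUO. The median change of all entries was 0.62 with UUO and 0.30 with adenine. The difference was -0.86 for Sulf2, -1.48 for Gab2, -1.71 for Cbl and -2.29 for Egr2, whose rise was larger with adenine. Fgf12 in the UUO model, Cbl in the adenine model and Egr2 in both entered the fit only through the diseased samples.

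Of 22 alternatives, the call for Fgfr4 and that for Elk3 were each lost in 16, that for Gpc4 in 15 and that for Sulf2 in 10. Those for Fgf9, Hras, Araf and Map2k2 were lost with median-of-ratios scaling and with quantile normalization, and that for Sdc2 with median-of-ratios scaling. Leaving out 1 sample ended the call for Gab2 (control sample 3 or adenine sample 1 or 3, adjusted p = 0.0519 to 0.0532) and that for Fgf12 (adenine sample 3, 0.0512), and a pseudocount of 1 that for Cbl (0.0571). The calls for Fgf22 and Plcg1 were kept in all 22, and that for Egr2 in all 16 under which it was tested. Groups of 3 were too small for a check of single samples that stand apart.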

How the results depend on the processing

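Of 1523 fold changes and differences of single genes computed under alternatives, 1319 kept their direction and their side of the threshold. Spry2, Dusp6, Etv4 and Etv5 kept both (direction alone for the log2 ratio of mean FPKM, which has no test) in both models in all 16 alternatives of the adenine and 17 of the UUO model, and Fgf1 in the adenine model. With a pseudocount of 1, DEGs fell from 2360 to 1320 in the adenine model and from 2613 to 1465 in the UUO model, by construction, since a larger pseudocount shrinks folds of low genes. Median-of-ratios scaling and quantile normalization turned the sign of Fgfr1 with adenine (-0.24 and -0.079), of Fgf1 (-0.51 and -0.33), Spry4 (-0.37 and -0.53) and Fgfr2 (-0.065 and -0.14) with UUO, quantile normalization that of Fgf22 with UUO (-0.082), and of the Spry2 difference between models (-0.15 and -0.11). Leaving out single samples gave -0.056 to 0.11 for Fgfr1 with adenine, -0.027 to 0.28 for Fgf1 with UUO, -0.15 to 0.12 for the Dusp6 difference, -0.68 to 0.22 for the Etv4 difference, and 1 to 4 members with a difference between the models (1 without adenine sample 3). Without sham samples 1 and 2, chosen after the data were seen, Fgf1 with UUO was -0.085, the Dusp6 difference 0.029 and the Etv4 difference -1.27 (adjusted p = 0.048). The cause was not tested.

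The labels give a group and a rat number, and the samples were not treated as paired. Deviations of same-numbered samples correlated at -0.123 to -0.049 for adenine and control and at 0.05 to 0.105 for UUO and sham. Each sham sample correlated best with its own number, so these values do not settle whether the numbers pair the UUO and sham samples. With the replicate block, DEGs numbered 2352 and 2609, and 1 member in place of 3 (Fgf1) had a difference between the models. Depth is unknown, and with 3 samples a group changes near the spread between rats, such as those of Spry4, are not settled.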
